A study of Mus musculus with 18 samples.

Results

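The recovery of cortical gene expression was compared between primary cultures of mouse cortical cells and the cortex of living mice. For each of 14807 genes, the change in culture (recovered minus stimulated dishes) was set against the change in cortex (recovered minus sleep-deprived mice). The difference of these changes, culture minus cortex, was itself tested. The members were 12 of the 18 arrays, 3 in each of 4 groups, chosen by their titles. The other 6 arrays, of sham-treated cultures and undisturbed cortex, entered the fits as a further source for the estimate of spread. Genes that changed in both systems are called shared, and genes whose difference passed the test beside 1 of the recoveries are called specific to that system.

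When neurons fire strongly, they switch on immediate early genes, many of which encode transcription factors. Effector genes that act at synapses and in signalling follow. In the cortex of mice kept awake, many of these transcripts are known to rise together with chaperones of the endoplasmic reticulum, and to decline during later sleep. An excitatory cocktail applied to a dish is a way to drive cultured neurons without a brain around them.

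Recovered cultures were taken 24 h after stimulation with a cocktail of excitatory neurotransmitters, and stimulated cultures 3 h after it. Sham cultures had received water 3 h before sampling. All dishes held dissociated cortical cells of C57BL/6J mice, taken at birth or from embryos of day 16 to 18, and the labels speak of 9 dishes of 3 cultures. Recovered cortex came from male C57BL/6J mice that had been kept awake for 6 h and then left to sleep. For this sleep the labels name both 18 h (source) and 24 h (treatment protocol), and by the design text the samples were taken a day later, at the hour when the treatment had begun. Sleep-deprived cortex was harvested right after the 6 h, and control mice stayed undisturbed in their home cages. A cortex array held pooled RNA of 3 mice and a culture array the RNA of 1 dish, so p-values measure only the spread between such pools and dishes. The 24 h dishes had no sham dish of their own age, and clock time differed between recovered and stimulated or deprived samples by the design text; neither can be told apart from recovery.

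Values are log2 signals, in which a difference of 1 is a doubling of the signal, and errors of changes are standard errors of the limma fit. The words rose, fell and changed are kept for genes whose limma p was under 0.05 after Benjamini-Hochberg adjustment over all 14807 genes, and such genes are said to pass. Deviations from the group means ran together in dishes that shared a number, and not in the pools of cortex. The fit with the dish number as a block is therefore given beside culture results whose call it changes, and is called the blocked fit. Pearson correlations between arrays of 1 group were 0.984 to 0.996 in culture and 0.996 to 0.998 in cortex, and the median residual SD of a gene was 0.147 in culture and 0.0761 in cortex. The neuron marker list had a mean signal of 11.7 to 11.9 on the 6 culture arrays compared and 11.3 on the 6 cortex arrays. Oligodendrocyte markers stood at 5.80 to 6.24 in culture, against 9.49 to 9.71 in cortex, and microglial markers at 5.51 to 5.86, against 7.77 to 7.98. Endothelial markers stood at 5.48 to 5.66 in culture, against 7.90 to 8.02 in cortex, while those of dividing cells were at 8.34 to 9.16, against 5.38 to 5.42. Levels across systems rest on the deposited scale, and in such bulk samples fewer cells of a type and less RNA per cell cannot be told apart.

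In culture 49 of 14807 genes changed during recovery (0.331%), 12 rising (0.081%) and 37 falling (0.25%). In cortex 334 changed (2.26%), 217 rising (1.47%) and 117 falling (0.79%). The difference of recoveries passed for 150 genes (1.01%), 45 with a more positive change in culture (0.304%) and 105 with a more negative one (0.709%). By the blocked fit 150 genes changed in culture (1.01%), 38 rising (0.257%) and 112 falling (0.756%). The difference then passed for 715 genes (4.83%), 250 more positive (1.69%) and 465 more negative (3.14%) in culture, including all 150 of the unblocked fit. The difference was fitted with 1 spread for both systems, and the block takes degrees of freedom from the dishes alone. The quieter pools then weigh more in that spread, so errors of the blocked difference can be too small. For the kinase gene Camk2a the blocked error was 0.084 for the difference and 0.086 for the culture change alone. Leaving out single arrays gave 72 to 411 genes for the difference, 1 to 82 for culture and 104 to 481 for cortex. After quantile normalization the split of the difference was 102 higher and 144 lower, 41.5% higher in place of 30%. In cortex it was 245 higher and 238 lower, 50.7% in place of 65.0%, and with arrays scaled to one standard deviation 206 and 226. In culture the scaled arrays gave 14 higher and 109 lower, 11.4% in place of 24.5%. Neither scaling moved the median change of all genes by more than 0.0606 on the log2 scale in any comparison.

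Only 3 genes changed in both systems (0.0203%), all in the same direction, and 0 in opposite directions (0%). They made up 6.12% of the genes that changed in culture and 0.898% of those that changed in cortex. The synaptic scaffold gene Homer1 and the AP-1 transcription factor gene Junb fell in both, and the clock output gene Dbp rose in both. The count of 3 rested on single dishes. It was 0 without any 1 of the sham dishes, the stimulated dishes or recovered dish 1, 1 without recovered dish 2 and 11 without recovered dish 3. By the blocked fit 12 genes were shared (0.081%) and 2 changed in opposite directions (0.0135%).

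Homer1, whose product links glutamate receptors to the postsynaptic scaffold, read 9.58, 9.15 and 9.67 in recovered dishes, against 10.31, 10.35 and 10.47 in stimulated dishes. In cortex it read 9.16, 9.11 and 9.18 in recovered pools, against 9.71, 9.66 and 9.73 in sleep-deprived pools. The groups did not overlap in either system, and every recovered array lay below every stimulated or deprived one. Groups that do not overlap were found for 15.3% of all genes in culture and 22.3% in cortex, so a lack of overlap is given for the genes below as a description. Homer1 fell by 0.91 ± 0.13 in culture (limma adjusted p = 0.045) and by 0.55 ± 0.04 in cortex (adjusted p = 0.0011), and the difference of -0.36 ± 0.14 did not pass (adjusted p = 0.30).

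Junb read 8.15, 8.28 and 9.13 in recovered dishes, against 10.01, 10.27 and 10.44 in stimulated dishes, and 7.78, 7.77 and 7.66 in recovered pools, against 8.10, 8.09 and 8.0 in deprived pools. Recovered dish 3 was the highest of its group and still below all stimulated dishes. Junb fell by 1.72 ± 0.26 in culture (adjusted p = 0.048) and by 0.33 ± 0.06 in cortex (adjusted p = 0.033). Junb was the 1 shared gene whose difference of recoveries also passed (-1.39 ± 0.28, limma adjusted p = 0.028).

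Dbp, a transcription factor gene driven by the circadian clock, read 9.72, 9.76 and 10.49 in recovered dishes, against 8.56, 8.46 and 8.24 in stimulated dishes. In cortex it read 10.13, 9.97 and 10.08 after recovery, against 9.40, 9.39 and 9.19 after sleep deprivation. Recovered arrays were higher than all stimulated or deprived arrays in both systems. It rose 2.97-fold in culture (log2 1.57 ± 0.21, adjusted p = 0.038) and by 0.73 ± 0.07 in cortex (adjusted p = 0.0026). The difference of 0.84 ± 0.24 did not pass (adjusted p = 0.12) and passed in the blocked fit (adjusted p = 0.048). Recovered arrays also stood above sham dishes, which read 9.21, 8.84 and 9.24, and above control pools, which read 9.89, 9.84 and 9.84. No gene passed for recovered against sham dishes or against control pools (0% each).

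The other 9 genes shared in the blocked fit, named after their values were seen, were Arc, Egr3, Nr4a1, Nr4a3, Rasd1, Sgk1 and Slc2a1, which fell in both, and Mrnip and Rnf144b, which rose in both. The nuclear receptor gene Nr4a1 fell by 2.05 in culture and by 0.71 in cortex, and Sgk1, a kinase gene induced by glucocorticoids, fell by 0.76 and by 0.43. Arc, an activity-induced gene of the postsynapse, had nearly equal changes in the unblocked fit. It read 8.57, 8.85 and 9.17 in recovered dishes, against 9.81, 10.52 and 10.36 in stimulated dishes, and 9.11, 9.10 and 9.12 in recovered pools, against 10.46, 10.30 and 10.42 in deprived pools. The groups did not overlap in either system. The change of Arc was -1.37 ± 0.25 in culture (limma adjusted p = 0.077, and 0.012 in the blocked fit), and it fell by 1.28 ± 0.05 in cortex (adjusted p = 1.0e-04). The difference between these was -0.09 ± 0.27 (adjusted p = 0.94). Plcd1, of the phospholipase C family, and Nyap2, of a family of phosphorylated neuronal adaptors, were the 2 genes of opposite direction in the blocked fit, falling in culture and rising in cortex.

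**Figure D1:**
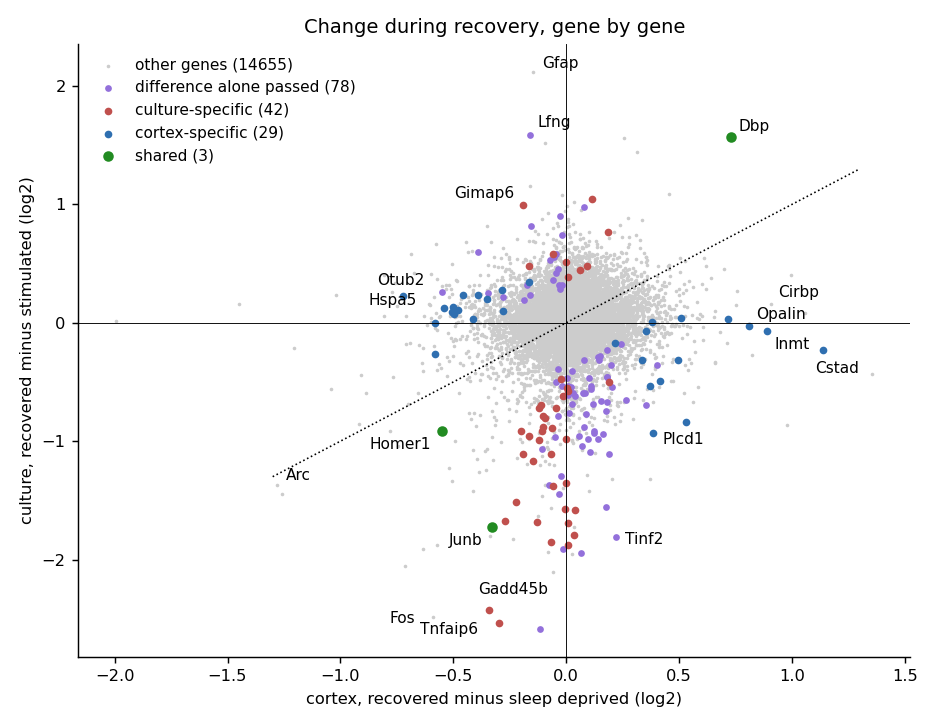
Change of every gene during recovery in cortex (x axis, recovered minus sleep deprived, log2) and in culture (y axis, recovered minus stimulated, log2). Each point is a gene, colours give the class, and the dotted line marks equal changes; Homer1, Junb and Dbp are the 3 shared genes, the 42 culture-specific genes spread along the vertical axis and the 29 cortex-specific genes along the horizontal one.

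Genes that changed in 1 system had small mean changes in the other. The 37 genes that fell in culture had a median change of -0.98 there and of -0.10 in cortex, and 30 of them were lower in the cortex mean. The 117 genes that fell in cortex had a median of -0.38 there and of -0.05 in culture, and 69 were lower in the culture mean. Among all genes, 48.2% of those lower in culture were lower in cortex, and 45% of those lower in cortex were lower in culture. Of the 217 genes that rose in cortex 132 were higher in the culture mean, which is close to the 61.8% among all genes higher in cortex.

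Of the 150 genes whose difference passed, the culture change was larger in size in 121 and the cortex change in 29. Over all genes the median size of the change was also larger in culture, 0.107 against 0.067 in cortex. The share of all genes with the larger change in culture was not counted, so the 121 cannot be read as particular to these genes. In 64 of the 105 with a negative difference the culture mean was lower and the cortex mean higher, and in 38 both were lower. In 37 of the 45 with a positive difference the culture mean was higher and the cortex mean lower. Over all genes, 2936 were lower in both systems and 5095 were higher in both. Selection by the size of the difference favours genes whose changes have opposite signs. These splits therefore cannot show that the recoveries of these genes were opposed. A total of 78 passed in the difference while neither recovery passed alone, 42 were specific to culture (0.284%) and 29 to cortex (0.196%), and the remaining gene was Junb. By the blocked fit 126 were specific to culture (0.851%) and 111 to cortex (0.75%).

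Gadd45b, a stress and activity-induced gene of DNA demethylation and growth arrest, had the smallest adjusted p of the difference. It read 8.30, 8.32 and 8.48 in recovered dishes, against 10.57, 10.78 and 11.03 in stimulated dishes. In cortex it read 7.36, 7.36 and 7.57 in recovered pools, against 7.80, 7.86 and 7.66 in deprived pools. The groups stood far apart in culture and just missed overlap in cortex. Gadd45b fell by 2.43 ± 0.14 in culture (adjusted p = 0.0010), stood at -0.34 ± 0.08 in cortex without passing (adjusted p = 0.075), and differed by -2.09 ± 0.16 (limma adjusted p = 3.9e-05).

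Atf3, a stress-induced transcription factor gene, had the largest negative difference of the 105 (-2.47 ± 0.51, adjusted p = 0.029). Its recovered dishes read 8.08, 7.47 and 9.51, against 10.38, 11.21 and 11.22 in stimulated dishes, and its pools read 5.74, 5.73 and 5.53 after recovery, against 5.84, 5.76 and 5.75 after deprivation. The spread of the recovered dishes was wide, with dish 3 the highest, and the culture change alone did not pass (-2.59 ± 0.47, adjusted p = 0.079). Tnfaip6, a hyaluronan-binding protein gene induced by inflammatory signals, fell by 2.54 ± 0.36 in culture and stood at -0.30 ± 0.13 in cortex without passing, a difference of -2.24 ± 0.40. The next after Gadd45b were Tinf2 (difference -2.03 ± 0.32), which encodes a telomere protein, Thbs1 (-2.01 ± 0.35), which encodes a matrix protein secreted by astrocytes among other cells, and the nuclear receptor gene Nr4a2 (-1.90 ± 0.36). In Tinf2 and Thbs1 the cortex means were higher after recovery, by 0.22 ± 0.07 and 0.06 ± 0.07, and neither passed.

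The cytokine gene Tslp (-1.89 ± 0.28), the receptor gene Gprc5a (-1.83 ± 0.18), Cwc25 (-1.79 ± 0.21) and Isy1 (-1.63 ± 0.27), both of the spliceosome, the sialyltransferase gene St8sia4 (-1.73 ± 0.29) and the Rab GTPase activator gene Tbc1d1 (-1.70 ± 0.20) completed the 12 most negative differences. Tslp, Gprc5a, Cwc25, Isy1 and Tbc1d1 fell in culture, and their cortex changes lay between -0.07 and 0.04. Gprc5a showed this most evenly, at 5.88, 5.83 and 5.88 in recovered dishes, against 7.90, 7.31 and 7.75 in stimulated dishes, and 5.11 to 5.24 in recovered pools, against 5.10 to 5.20 in deprived pools. The cortex groups overlapped and the culture groups did not. The pools of Gprc5a, like those of Atf3, lay below the column medians of the arrays, 6.87 to 7.09. Whether so low a signal limited the changes seen in cortex was not tested. Among the 10 culture-specific genes with the largest differences were also the tumour suppressor gene Rassf1 (-1.57 ± 0.17), the kinase gene Pim1 (-1.55 ± 0.21) and the transcription factor gene Klf4 (-1.40 ± 0.25).

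On the positive side Lfng, a glycosyltransferase that modifies Notch receptors, had the largest difference (1.75 ± 0.31, adjusted p = 0.014). It read 9.64, 9.97 and 10.55 in recovered dishes, against 8.02, 9.01 and 8.36 in stimulated dishes, and 8.75, 8.60 and 8.72 in recovered pools, against 8.92, 8.78 and 8.84 in deprived pools. Every recovered dish was above every stimulated dish, and every recovered pool was below every deprived pool. The culture change of 1.59 ± 0.29 did not pass alone (adjusted p = 0.077) and passed in the blocked fit (adjusted p = 0.041), while the cortex change was -0.16 ± 0.05 (adjusted p = 0.19).

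Gimap6 (1.19 ± 0.16), of a GTPase family of immune cells, and the carbohydrate sulfotransferase gene Chst12 (0.93 ± 0.19) rose in culture and were culture-specific. Gimap6 read 4.44, 3.99 and 4.27 in recovered dishes, against 3.29, 3.14 and 3.29 in stimulated dishes, all far below the column medians. Chst12 read 9.44, 9.79 and 9.62 in recovered dishes, against 8.66, 8.57 and 8.48 in stimulated dishes, and its pools overlapped. Cdyl2 (0.99 ± 0.13), Trp53inp1 (0.98 ± 0.20), a target of p53, Dnajc28 (0.93 ± 0.20), Lrig1 (0.90 ± 0.20), an inhibitor of growth factor receptors, Dok3 (0.81 ± 0.16) and Pgpep1 (0.75 ± 0.15) passed in the difference while neither recovery passed, except that Cdyl2 rose in culture in the blocked fit (adjusted p = 0.027). The deubiquitinase gene Otub2 (0.95 ± 0.14), the spermine oxidase gene Smox (0.69 ± 0.14) and Banp (0.67 ± 0.11), which encodes a nuclear matrix protein, had positive differences of another kind, because they fell in cortex and were cortex-specific. Otub2 read 8.45, 8.34 and 8.57 in recovered pools, against 9.13, 9.19 and 9.21 in deprived pools, and its dishes overlapped.

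**Figure D2:**
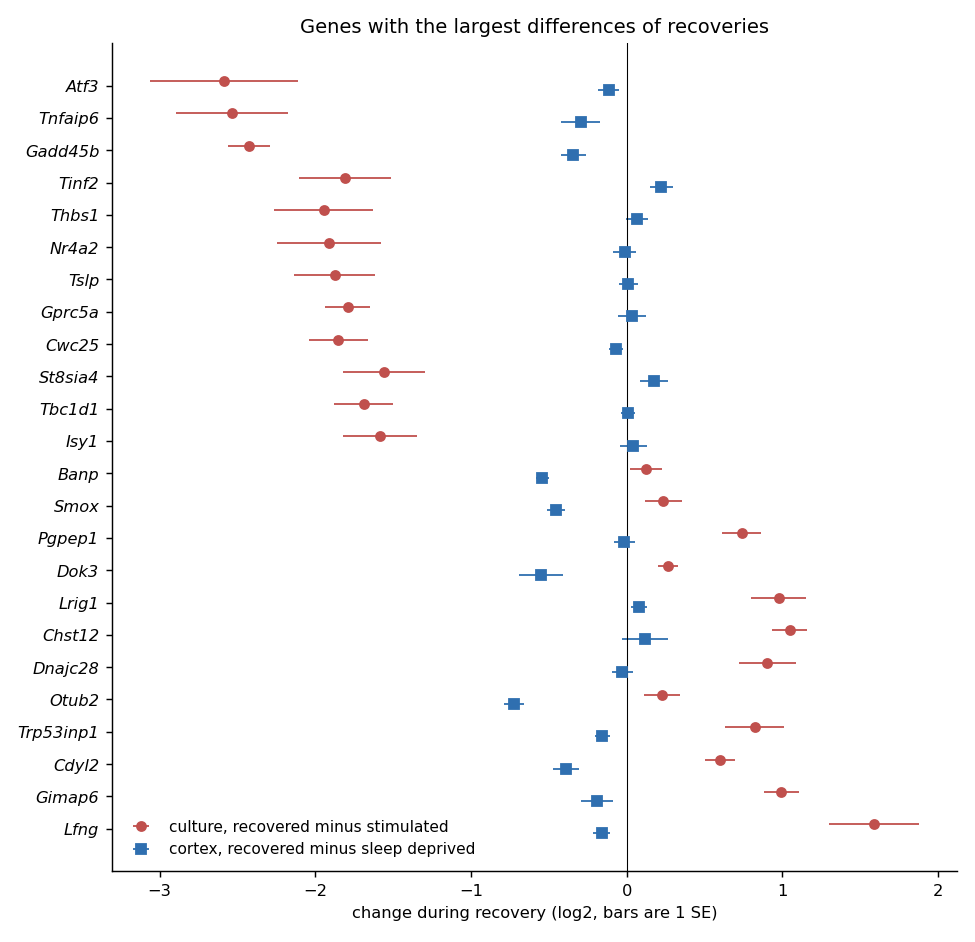
Changes during recovery (x axis, log2, with bars of 1 standard error, n = 3 arrays per group) of the 12 genes with the most negative and the 12 with the most positive difference of recoveries among those that passed. Circles are culture (recovered minus stimulated) and squares cortex (recovered minus sleep deprived); for Banp, Smox, Dok3 and Otub2 the square lies farther from 0 than the circle, and for the other genes the circle does.

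Among the 10 largest cortex-specific differences, Cstad (-1.36 ± 0.23), Inmt (-0.96 ± 0.19), a methyltransferase gene, and Opalin (-0.83 ± 0.09), a membrane protein gene of oligodendrocytes, rose in cortex, with culture changes of -0.23 ± 0.18, -0.07 ± 0.17 and -0.02 ± 0.06 that did not pass. Cstad read 7.71, 7.61 and 7.86 in recovered pools, against 6.35, 6.74 and 6.69 in deprived pools, and 7.94, 7.93 and 7.36 in recovered dishes, against 7.95, 7.93 and 8.03 in stimulated dishes. Only the cortex groups stood apart. Rasgef1b (-1.37 ± 0.17), which encodes an exchange factor for Ras-type GTPases, Plcd1 (-1.32 ± 0.19), Usp2 (-0.91 ± 0.13), Nyap2 (-0.90 ± 0.16) and Mettl27 (-0.81 ± 0.13) rose in cortex and had negative changes in culture, which passed in the blocked fit for Plcd1 and Nyap2 alone. Plcd1 read 8.64, 8.31 and 8.75 in recovered dishes, against 9.73, 9.15 and 9.62 in stimulated dishes, and 8.49, 8.52 and 8.69 in recovered pools, against 8.15, 8.20 and 8.18 in deprived pools. The groups were apart in both systems and in opposite order, and the culture change of Plcd1 was the larger in size.

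Among the 29 gene lists, the immediate early transcription factors had the median difference farthest from 0. Of 22 measured, 2 fell in culture, 9 fell in cortex and 7 passed in the difference, all with the more negative change in culture. The medians were -1.35 in culture, -0.33 in cortex and -0.84 for the difference, against 0.031, 0.012 and 0.024 over all genes. Beside the counts of this and the later lists, 0.331% of all genes passed in culture, 2.26% in cortex and 1.01% in the difference. In the blocked fit these shares were 1.01% in culture and 4.83% in the difference. The 7 were Atf3, Nr4a2, Maff (-1.42 ± 0.25), Klf4, Junb, Csrnp1 (-1.29 ± 0.26) and Jun (-0.86 ± 0.16), and in the blocked fit 6 fell in culture and 11 passed in the difference. Maff encodes a small Maf factor, Csrnp1 a nuclear protein induced by axin, and Jun a subunit of AP-1. In cortex 6 of the 7 did not pass, with Jun at 0.09 ± 0.04 and Nr4a2 at -0.01 ± 0.07. Fos, another AP-1 subunit, stood at -2.49 ± 0.54 in culture and -0.59 ± 0.12 in cortex, and passed in neither nor in the difference (-1.90 ± 0.59, adjusted p = 0.16, and 0.028 in the blocked fit). Egr1 stood at -0.63 ± 0.28 in culture without passing and fell by 0.35 ± 0.04 in cortex, with a difference of -0.28 ± 0.30 (adjusted p = 0.77).

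The list mean of these 22 genes was 8.54, 8.46 and 9.26 in recovered dishes, against 9.85, 9.87 and 10.15 in stimulated dishes and 8.40 to 8.46 in sham dishes. In cortex it was 7.59, 7.65 and 7.69 in recovered pools, against 7.98, 7.94 and 7.97 in deprived pools and 7.54 to 7.71 in control pools. Recovered dish 3 stood between the sham and the stimulated dishes, while the other recovered dishes were near the sham dishes. Fos read 9.85 in recovered dish 3, against 7.95 and 7.47 in the others. Dish 3 was the highest recovered dish for 26 of the 37 genes that fell in culture (70.3%) and for 46.3% of all genes. Its part in the results was not tested beyond leaving it out, which gave 376 genes in the difference and 82 in culture.

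Of 23 activity-regulated effector genes, 3 fell in culture, 10 fell in cortex and 2 passed in the difference. In the blocked fit 6 fell in culture and 9 passed in the difference, 2 more positive and 7 more negative in culture. The medians were -0.71 in culture, -0.36 in cortex and -0.57 for the difference. Gadd45b and Pim1 were the 2, and Homer1 was the third to fall in culture. The neurotrophin gene Bdnf stood at -0.66 ± 0.20 in culture and -0.22 ± 0.06 in cortex, and passed in neither. Nptx2, which encodes a secreted synaptic pentraxin, stood at -0.44 ± 0.39 in culture without passing and fell by 0.37 ± 0.06 in cortex. Trib1, a pseudokinase gene, went the other way, with 0.15 ± 0.18 in culture and a fall of 0.60 ± 0.09 in cortex, and its difference passed in the blocked fit (0.75 ± 0.15, adjusted p = 0.014).

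The promoters of Homer1, Junb and Nr4a2 are shown because the first fell in both systems with no difference that passed, the second fell in both and more in culture, and the third passed in the difference with cortex groups that overlapped. Each line gives the 250 bases before an annotated start from RefSeq (GRCm38.p6), in the direction of transcription. They lie at chr13:93303507-93303756 on the plus strand for Homer1, chr8:84978749-84978998 on the minus strand for Junb and chr2:57124004-57124253 on the minus strand for Nr4a2. Capitals mark the core of the cAMP response element, TGACG, on either strand, to which CREB-type factors bind.
Homer1: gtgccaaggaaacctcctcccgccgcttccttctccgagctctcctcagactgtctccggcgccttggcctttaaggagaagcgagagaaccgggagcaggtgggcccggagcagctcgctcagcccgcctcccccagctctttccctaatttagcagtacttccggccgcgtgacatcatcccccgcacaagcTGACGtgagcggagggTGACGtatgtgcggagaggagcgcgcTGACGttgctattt
Junb: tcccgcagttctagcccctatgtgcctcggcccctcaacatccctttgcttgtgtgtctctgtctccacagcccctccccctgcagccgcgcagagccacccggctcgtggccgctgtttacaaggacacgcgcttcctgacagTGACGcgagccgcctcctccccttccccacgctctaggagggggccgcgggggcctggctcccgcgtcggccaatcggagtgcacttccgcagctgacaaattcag
Nr4a2: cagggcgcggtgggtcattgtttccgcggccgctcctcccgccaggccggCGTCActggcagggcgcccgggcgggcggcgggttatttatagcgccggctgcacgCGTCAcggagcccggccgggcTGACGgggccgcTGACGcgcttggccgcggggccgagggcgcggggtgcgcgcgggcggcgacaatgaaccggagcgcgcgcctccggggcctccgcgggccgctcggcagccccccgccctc
The core was present 3 times in this Homer1 promoter, 1 time in that of Junb and 4 times in that of Nr4a2. For the counts, windows of 250 bases before to 50 after each start were searched. The core was found in 19 of 26 windows of the immediate early list, 10 of 25 of the effector list, 17 of 42 of culture-specific genes and 8 of 30 of cortex-specific genes. It was found in 25.8% of the 14847 windows of genes on the arrays. Some genes had several windows. Counted by gene, the core was found for 13 of 17 immediate early, 10 of 16 effector, 16 of 34 culture-specific and 5 of 24 cortex-specific genes. Among genes on the arrays it was found for 3474 of 11830. These are matches of letters in the windows and not shown to be sites.

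Chaperones of the endoplasmic reticulum passed in cortex alone in the unblocked fits of recovery. These proteins fold secreted and membrane proteins, and their genes are induced by the unfolded protein response. Of 22 measured, 9 fell in cortex, 0 changed in culture, and 1 passed in the difference, Pdia6, with 6 in the blocked fit. The medians were 0.056 in culture, -0.28 in cortex and 0.30 for the difference, and 21 of 22 differences were above 0. With scaled arrays the culture median was -0.007.

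Hspa5, also known as BiP, read 11.39, 11.60 and 12.10 in recovered dishes, against 11.53, 11.54 and 11.85 in stimulated dishes. In cortex it read 9.99, 9.98 and 10.15 in recovered pools, against 10.83, 10.84 and 10.87 in deprived pools. The dishes overlapped and the pools stood apart. Hspa5 fell by 0.81 ± 0.07 in cortex (adjusted p = 0.0028) and the culture change was 0.06 ± 0.18 (adjusted p = 0.94). The difference of 0.86 ± 0.21 did not pass (limma adjusted p = 0.067) and passed in the blocked fit (adjusted p = 0.012).

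Pdia6, a protein disulfide isomerase gene, read 9.93, 9.97 and 10.30 in recovered dishes, against 9.96, 9.91 and 9.99 in stimulated dishes, and 8.37, 8.46 and 8.57 in recovered pools, against 8.82, 8.95 and 9.06 in deprived pools. It fell in cortex by 0.48 ± 0.07 and its difference was 0.59 ± 0.13 (adjusted p = 0.036). A second isomerase gene, Pdia4, was at the threshold in the difference (0.86 ± 0.19, adjusted p = 0.050) and passed in the blocked fit. Hyou1, a chaperone of the same compartment, also passed in the blocked fit alone (0.51 ± 0.13, adjusted p = 0.048). Recovered dish 3 was again the highest dish for Hspa5, Pdia6, Pdia4 and Hyou1.

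The promoters of Hspa5 and Pdia6 are shown because both fell in cortex and hold the endoplasmic reticulum stress response element (ERSE), searched as CCAAT, 9 further bases and CCACG on either strand. They lie at chr2:34771840-34772089 and chr12:17266339-17266588, both on the plus strand, and each line gives the 250 bases before the RefSeq start (GRCm38.p6). Capitals mark the 2 ends of the element and, in Hspa5, the 1 core of the cAMP response element upstream of it.
Hspa5: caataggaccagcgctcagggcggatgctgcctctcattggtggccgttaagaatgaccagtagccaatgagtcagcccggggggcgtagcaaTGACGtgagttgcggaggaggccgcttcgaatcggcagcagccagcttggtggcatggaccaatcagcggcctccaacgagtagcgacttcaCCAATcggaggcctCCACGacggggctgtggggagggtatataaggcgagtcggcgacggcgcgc
Pdia6: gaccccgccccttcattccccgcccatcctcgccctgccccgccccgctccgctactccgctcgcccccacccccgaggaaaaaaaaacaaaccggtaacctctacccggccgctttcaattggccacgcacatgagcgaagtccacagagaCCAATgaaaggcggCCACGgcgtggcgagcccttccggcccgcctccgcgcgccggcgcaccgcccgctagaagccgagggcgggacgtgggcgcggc
The element began 65 bases before the start in Hspa5 and 98 bases before it in Pdia6. Of 20 windows of list members 7 held it (35%), against 0.101% of all windows of genes on the arrays. The 7 genes were Calr, Canx, Creld2, Derl3, Hsp90b1, Hspa5 and Pdia6. Their culture changes lay between -0.04 and 0.11 and none passed. In cortex Calr (-0.32), Hsp90b1 (-0.36), Hspa5 and Pdia6 fell, while Canx (-0.02), Creld2 (-0.42) and Derl3 (-0.24) did not pass. Counted by gene, 15 genes on the arrays held the element. Those outside the list, named after their values were seen, were Acacb, Adcy3, Alg12, Pan2, Ptgdr2, Spats2l, Syvn1 and Zfp57. None of them passed in culture, cortex or the difference, and their cortex changes lay between -0.145 and 0.141.

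Cholesterol synthesis genes had medians of opposite sign in the 2 systems. Neurons and astrocytes make their cholesterol within the brain, and the genes of the pathway are controlled together by SREBP factors. Of 17 measured, 0 changed in culture, Insig1 and Lss rose in cortex and 1 passed in the difference, with 10 in the blocked fit, all more negative in culture. The medians were -0.39 in culture, 0.13 in cortex and -0.64 for the difference, against 0.031, 0.012 and 0.024 over all genes. All 17 changes were below 0 in culture and 15 were above 0 in cortex, and the medians kept these signs with quantile-normalized and with scaled arrays.

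Msmo1, a sterol methyl oxidase gene, was the 1 that passed. It read 11.21, 11.18 and 10.86 in recovered dishes, against 11.65, 11.73 and 11.83 in stimulated dishes, and 9.55, 9.56 and 9.82 in recovered pools, against 9.41, 9.34 and 9.39 in deprived pools. The groups did not overlap and lay in opposite order. The culture change of -0.65 ± 0.17 and the cortex change of 0.27 ± 0.08 did not pass alone, and the difference was -0.92 ± 0.20 (adjusted p = 0.040). Insig1, which retains the SREBP machinery in the endoplasmic reticulum, rose in cortex (0.36 ± 0.06) and was lower in culture (-0.56 ± 0.22, adjusted p = 0.37), and its difference passed in the blocked fit (-0.92 ± 0.13, adjusted p = 0.0017). The isomerase gene Ebp (-1.07 ± 0.10) and the desaturase gene Sc5d (-0.56 ± 0.08) fell in culture in the blocked fit alone. The list mean was 10.41, 10.54 and 10.01 in recovered dishes, against 10.75, 10.90 and 10.78 in stimulated dishes, with dish 3 the lowest. In sham dishes it was 10.39, 10.82 and 10.22, a range that overlapped both of these groups.

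**Figure D3:**
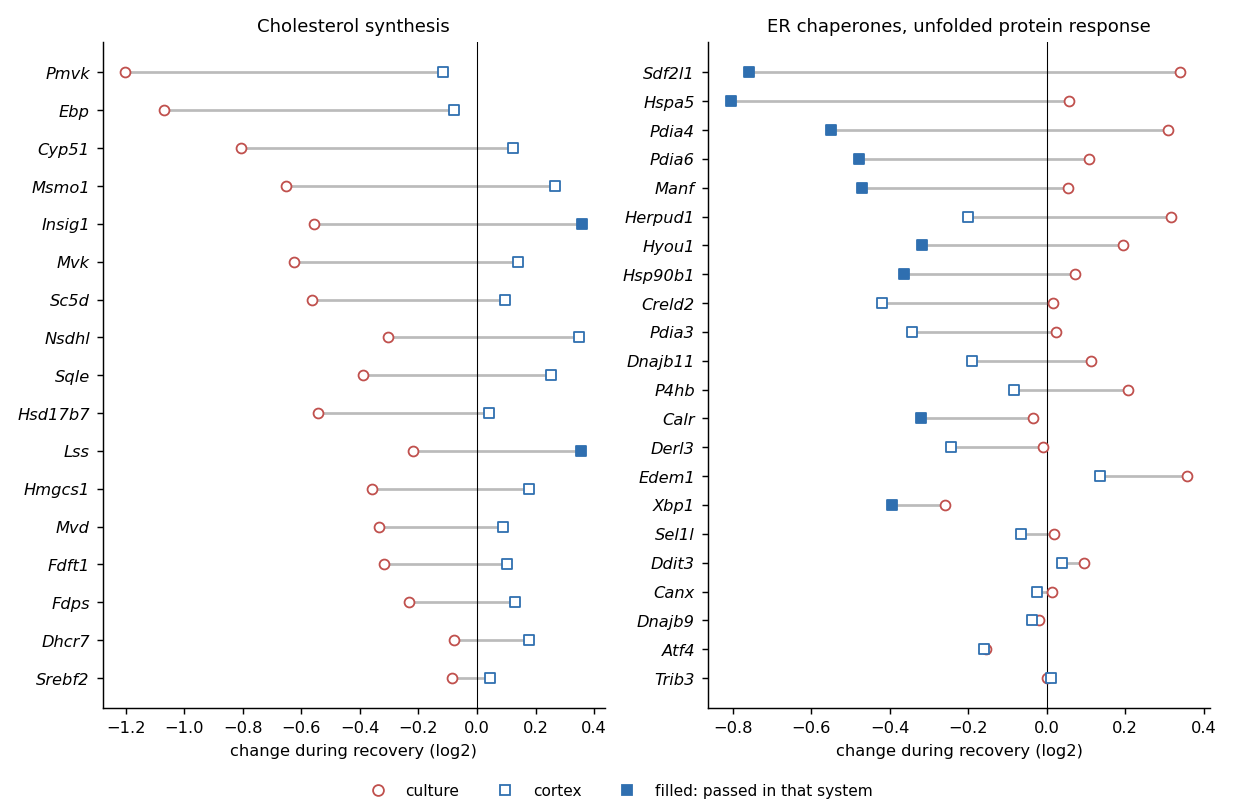
Change during recovery (x axis, log2) of each measured cholesterol synthesis gene (left, 17 genes) and endoplasmic reticulum chaperone or unfolded protein response gene (right, 22 genes), ordered by the difference of recoveries. Circles are culture and squares cortex, and filled marks passed in that system: 2 cholesterol genes rose in cortex, 9 chaperone genes fell in cortex and none of either list passed in culture.

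Glucocorticoid-responsive genes respond in mice to corticosterone, which is released during enforced wakefulness. Of 17 measured, 1 fell in culture, Errfi1, and 7 in cortex, with medians of -0.04 in culture and -0.29 in cortex. The difference passed for 1 in each direction, and in the blocked fit 2 fell in culture and the difference passed for 4 more positive and 2 more negative. Fkbp5, a co-chaperone gene of the glucocorticoid receptor, read 8.10, 8.09 and 7.95 in recovered dishes, against 8.10, 8.17 and 7.99 in stimulated dishes, and 7.00, 6.83 and 7.08 in recovered pools, against 7.41, 7.53 and 7.70 in deprived pools. The dishes overlapped and the pools did not. Its difference of 0.54 ± 0.15 did not pass (adjusted p = 0.11) and passed in the blocked fit (adjusted p = 0.038), as did that of the lipid droplet gene Plin4 (0.59 ± 0.15, adjusted p = 0.047). The receptor kinase gene Mertk (0.62 ± 0.13), used in phagocytosis, passed in the difference and was cortex-specific. Errfi1, a feedback inhibitor of the EGF receptor, had the more negative change in culture. It read 10.04, 10.08 and 10.24 in recovered dishes, against 11.02, 10.99 and 11.21 in stimulated dishes, fell by 0.96 ± 0.08 there, stood at -0.16 ± 0.04 in cortex without passing, and differed by -0.79 ± 0.09 (limma adjusted p = 9.8e-04).

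Of 18 clock genes, Dbp rose in culture, Dbp and Usp2 rose and Per1, Nfil3 and Bhlhe40 fell in cortex, and Usp2 was the 1 to pass in the difference. In the blocked fit 2 were more positive and 2 more negative in culture. Usp2, a deubiquitinase gene whose transcript cycles with the clock, read 10.18, 10.15 and 10.26 in recovered dishes, against 10.67, 10.52 and 11.02 in stimulated dishes. In cortex it read 9.51, 9.54 and 9.55 after recovery, against 9.15, 9.14 and 9.20 after deprivation. The order of the groups was opposite in the 2 systems and none overlapped. Usp2 rose in cortex by 0.37 ± 0.04, stood at -0.53 ± 0.13 in culture without passing, and differed by -0.91 ± 0.13 (adjusted p = 0.0044). The period gene Per1 fell by 0.29 ± 0.04 in cortex and stood at -1.01 ± 0.22 in culture without passing (adjusted p = 0.12). Its difference passed in the blocked fit alone (-0.72 ± 0.18, adjusted p = 0.044). Nfil3, a repressor that competes with Dbp for its sites, fell by 0.41 ± 0.07 in cortex and stood at -1.42 ± 0.41 in culture without passing, with recovered dish 3 at 9.76, against 8.25 and 8.09 in the others.

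Cirbp, a cold-inducible RNA-binding protein gene, rose by 0.91 ± 0.08 in cortex (adjusted p = 0.0026), and was the 1 of 13 RNA-binding protein genes to change there. It read 9.09, 9.10 and 9.14 in recovered pools, against 8.12, 8.41 and 8.09 in deprived pools, while dishes read 10.08, 10.12 and 9.89 after recovery, against 9.94, 9.98 and 9.69 after stimulation. The dishes overlapped. The culture change was 0.16 ± 0.15 and the difference -0.75 ± 0.17, which did not pass (adjusted p = 0.054) and passed in the blocked fit (adjusted p = 0.0027). Of 11 cytosolic and mitochondrial chaperones Hsph1, Dnajb5 and Chordc1 fell in cortex and 0 changed in culture. The co-chaperone gene Dnajb5 passed in the difference (0.32 ± 0.06, adjusted p = 0.023), since it fell by 0.58 ± 0.04 in cortex and stood at -0.26 ± 0.05 in culture.

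**Figure D4:**
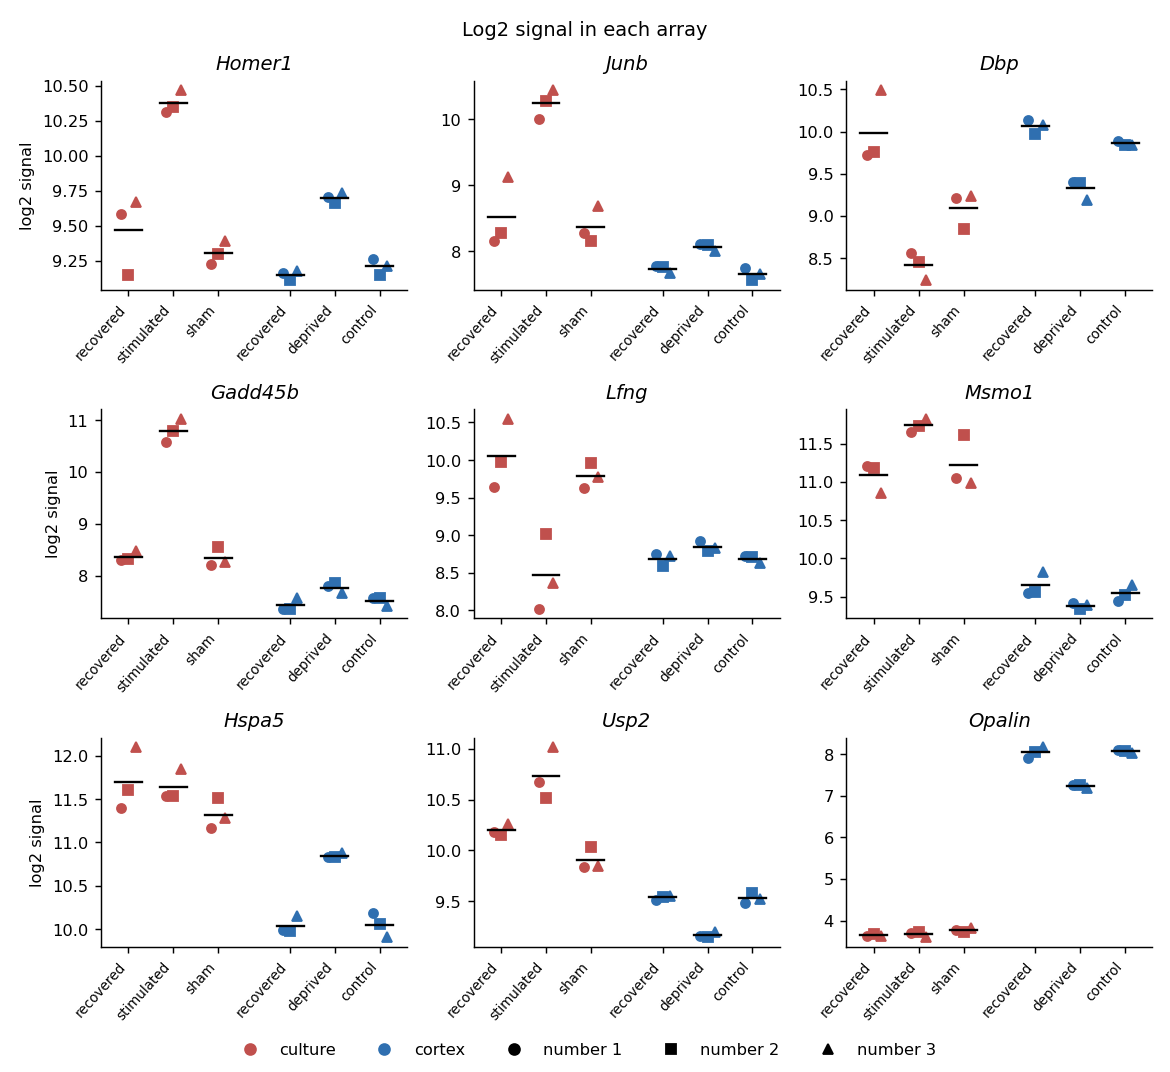
Log2 signal of 9 genes on each of the 18 arrays (y axis), by group (x axis), with recovered left of stimulated or sleep-deprived arrays and of sham or control arrays. Symbols give the replicate number and bars the group mean; Homer1, Junb and Dbp differ between recovered and stimulated or deprived arrays the same way in both systems, the groups of Msmo1 and Usp2 lie in opposite order, and Opalin lies between 3.63 and 3.68 in the recovered dishes.

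Through the Notch pathway neighbouring cells signal by contact. Of 17 measured genes 0 changed in culture or cortex and Lfng passed in the difference, with medians of 0.36 in culture and 0.04 in cortex. The cortex median was -0.002 with quantile-normalized arrays. In the blocked fit Nrarp, Lfng and Hes5 rose in culture and 6 genes passed in the difference, all positive. Nrarp, a feedback inhibitor induced by Notch, read 8.47, 8.61 and 7.83 in recovered dishes, against 6.77, 7.23 and 6.59 in stimulated dishes, and 7.01, 7.07 and 7.14 in recovered pools, against 6.86, 6.87 and 6.55 in deprived pools. The groups did not overlap and lay in the same order in both systems. Its difference of 1.13 ± 0.27 passed in the blocked fit (adjusted p = 8.2e-04) and not without the block (adjusted p = 0.066). The receptor gene Notch1 was higher by 0.99 ± 0.22 in culture and by 0.00 ± 0.03 in cortex, and its difference also passed in the blocked fit alone (adjusted p = 0.015).

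None of 10 astrocyte markers passed in the unblocked fits, with medians of 0.28 in culture and -0.02 in cortex. Gfap, the astrocyte filament gene, read 9.90, 7.15 and 11.16 in recovered dishes, against 7.35, 6.10 and 8.41 in stimulated dishes. The groups overlapped, yet within each number the recovered dish was higher, and the change of 2.12 passed in the blocked fit (± 0.32, adjusted p = 0.046) and not without the block (± 1.14, adjusted p = 0.52). The astrocyte list mean was 9.86, 9.78 and 10.46 in recovered dishes, against 9.54, 9.60 and 9.81 in stimulated dishes, and 9.37 to 9.44 in recovered pools, against 9.41 to 9.45 in deprived pools. These shifts stood beside those of the Notch list, and their part in them was not tested.

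Of 11 oligodendrocyte markers Opalin and Aspa, an enzyme gene of acetylaspartate breakdown, rose in cortex. The list as a whole did not follow them, with a cortex median of 0.08 and 5 of the 11 changes below 0. Opalin read 7.91, 8.04 and 8.16 in recovered pools, against 7.26, 7.26 and 7.17 in deprived pools, and 3.59 to 3.72 in the dishes of both groups. All dishes of both groups lay far below all pools. Pdgfrb, a growth factor receptor gene of pericytes, rose by 0.77 ± 0.10 in culture and passed in the difference (0.58 ± 0.11, adjusted p = 0.022), the 1 of 12 pericyte and smooth muscle markers to do so. Dcx, a microtubule gene of young neurons, rose in cortex by 0.66 ± 0.03 and stood at 0.10 ± 0.27 in culture without passing. Its difference passed in the blocked fit alone (-0.56 ± 0.08, limma adjusted p = 0.0022). Dcx was the 1 of 10 immature neuron markers to change in cortex, where the list median was 0.06 and 3 changes were below 0. None of 11 neuron, 11 interneuron, 7 oligodendrocyte precursor, 10 fibroblast, 5 blood cell or 13 dividing cell markers passed in any of the 3 unblocked tests, against 0.331%, 2.26% and 1.01% of all genes in culture, cortex and the difference, so that few or none would be called at the shares of all genes. The dividing cell list had a median of 0.26 in culture and 0.01 in cortex.

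Of 21 presynaptic genes and 18 respiratory chain genes 0 passed in any unblocked test, as was the case for 13 translation factors and tRNA synthetases. Few or none would be called in lists of this size at the shares of all genes, 0.331% in culture, 2.26% in cortex and 1.01% in the difference. Chka, a choline kinase gene, was the 1 of 20 phospholipid genes to fall in culture (-0.91 ± 0.10) and to pass in the difference (-0.81 ± 0.11). Single members rose in cortex in the lists of phospholipid genes (Pla2g4e, 0.75), of 16 glutamate and GABA receptor genes (Gria4, 0.18), of 18 ion channel genes (Kcnj3, 0.17) and of 12 microglial markers (Trem2, 0.30), and Slc2a1 alone of 11 endothelial markers fell there. These were named after their values were seen, as were Lss, Bhlhe40, Hsph1, Chordc1, Hes5, Nr4a1 and Sgk1. Among 23 cytokines and inflammatory genes Tnfaip6 alone passed, and among 18 matrix genes Thbs1 alone. In the blocked fit 2 matrix genes fell in culture and 3 were more negative in the difference, 2 phospholipid genes were more negative, and 1 cytokine gene was more positive and 2 more negative.

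**Figure D5:**
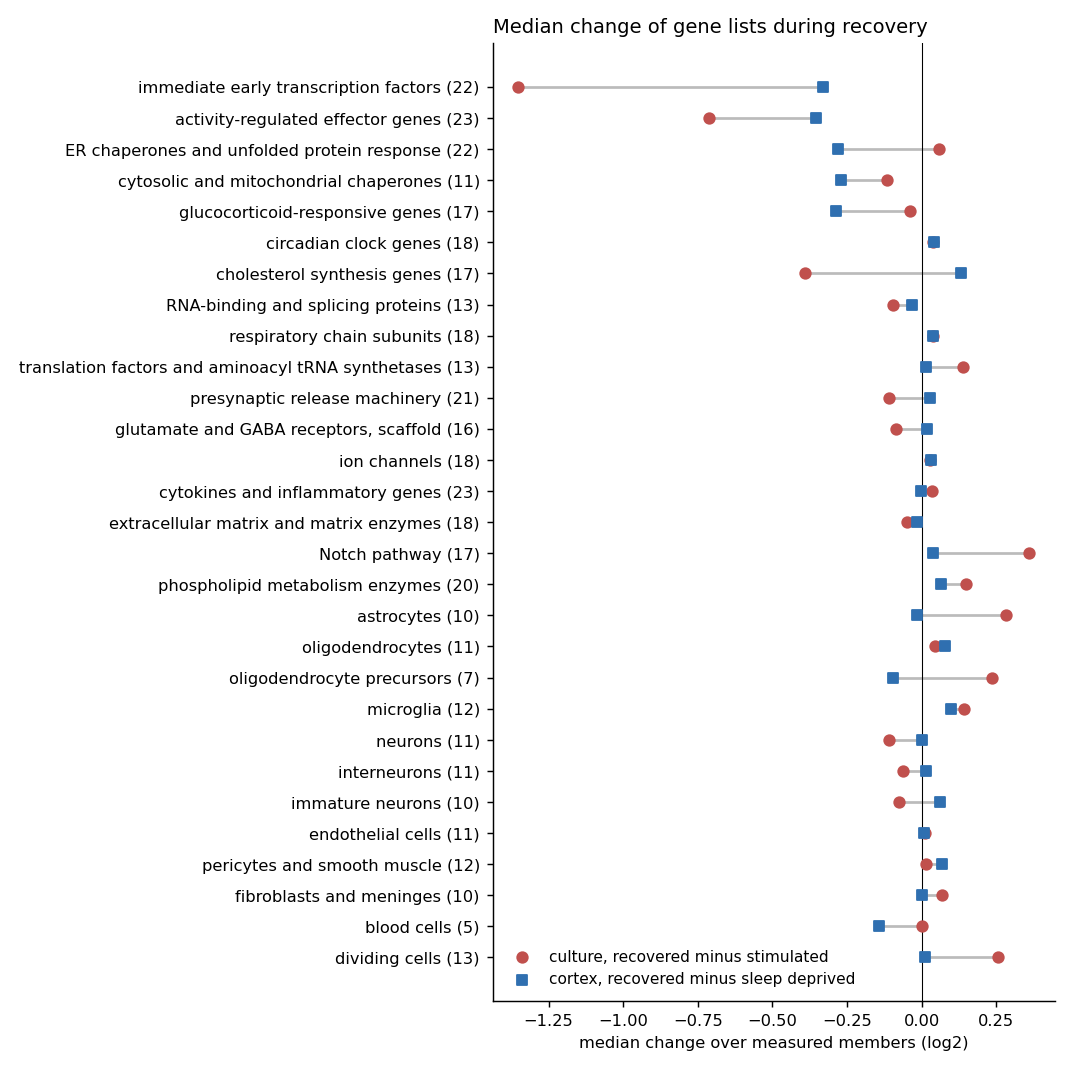
Median change during recovery (x axis, log2) over the measured members of each gene list, with the number of measured members in brackets. Circles are culture (recovered minus stimulated) and squares cortex (recovered minus sleep deprived); immediate early transcription factors lie at -1.35 and -0.33, cholesterol synthesis genes at -0.39 and 0.13, and endoplasmic reticulum chaperones at 0.056 and -0.28.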

How the data were processed

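RNA was measured on 18 whole-transcript arrays, each given 100 ng of total RNA; per the labels' protocols, RNA of cortex and of cultures was isolated with different kits. The deposited log2 values were made by the authors with RMA, per the submitters' processing notes; neither its version nor whether both systems were normalized together is given in the sources used here. Column medians were 6.87 to 7.09, with SDs of 2.77 to 2.80 in culture and 2.29 to 2.31 in cortex. Of 23238 probe sets, 14939 had 1 gene symbol, 989 several and 7310 none. Each of 131 genes with several probe sets was represented by the brightest on average over the 18 arrays. Entrez IDs of 14752 of 14807 genes matched RefSeq GRCm38.p6, used for names and promoters. The 8299 other probe sets gave 0 calls.

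limma 3.58.1 in R 4.3.3 (lmFit, eBayes, two-sided) was run on the 9 arrays of each system for its recovery and on all 18, as 6 group means, for the difference. Same-number dishes correlated at 0.202 to 0.552 over 9 pairs, against -0.358 to 0.118 over 18 pairs of different numbers; same-number pools at -0.102 to 0.101. The pairing of dishes rests on this and on labels of 3 cultures.

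The 17 pathway and 12 marker lists, the members and the naming rule were chosen with earlier results of these data known. The rule names the 12 largest differences each way, shared genes, the 10 largest system-specific ones, fixed anchors, and list members that passed or had the 4 smallest p. The number of arrays limits the precision.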

Additional observations from a re-analysis of the deposited data

Results flagged for a closer look

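Recovery differed between culture and cortex in 150 genes by the test of the difference itself, and the genes named in the text whose difference passed were looked at again. All values are log2 differences of recoveries, culture minus cortex. Immediate early and effector genes gave Atf3 -2.47, Gadd45b -2.09, Nr4a2 -1.90, Pim1 -1.55, Maff -1.42, Klf4 -1.40, Junb -1.39, Csrnp1 -1.29 and Jun -0.86. Other genes that were more negative in culture were Tnfaip6 at -2.24, Tinf2 at -2.03, Thbs1 at -2.01, Tslp at -1.89, Gprc5a at -1.83, Cwc25 at -1.79, St8sia4 at -1.73, Tbc1d1 at -1.70, Isy1 at -1.63 and Rassf1 at -1.57. With smaller sizes, Msmo1 stood at -0.92, Chka at -0.81 and Errfi1 at -0.79. Genes that rose in cortex were Rasgef1b at -1.37, Cstad at -1.36, Plcd1 at -1.32, Inmt at -0.96, Usp2 at -0.91, Nyap2 at -0.90, Opalin at -0.83 and Mettl27 at -0.81. Positive differences were Lfng at 1.75, Gimap6 at 1.19, Cdyl2 at 0.99, Trp53inp1 at 0.98, Otub2 at 0.95, Dnajc28 at 0.93, Chst12 at 0.93, Lrig1 at 0.90, Dok3 at 0.81, Pgpep1 at 0.75, Smox at 0.69, Banp at 0.67, Mertk at 0.62, Pdia6 at 0.59, Pdgfrb at 0.58 and Dnajb5 at 0.32. Groups of 3 arrays are too small for a test of single outlying arrays.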

How the results depend on the processing

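All 46 named genes that passed in the difference kept their sign under every alternative; 18 stayed past the threshold under all of them, 26 without each array in turn and 22 under those that left out no array. The counts were less stable, and the cause was not tested. In the order difference, culture recovery, cortex recovery and shared genes, they were 58, 1, 182 and 0 with only the compared arrays, 423, 150, 190 and 7 with the replicate block in both systems, and 715, 150, 334 and 12 with the replicate block in cultures alone. Array weights, by limma's gene-by-gene algorithm because the default did not converge, gave 687, 241, 672 and 31. Quantile normalization gave 246, 95, 483 and 7, and scaled arrays 183, 123, 432 and 20. After removing the dimmest 30% of genes they were 198, 74, 596 and 9, and at an adjusted p under 0.10 they were 312, 129, 723 and 12. In 1 model of all 18 arrays culture gave 872, cortex 42 and shared genes 7, with 1 spread for both systems. At 1.5-fold or more cortex kept 30 genes and 1 was shared.

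System-specific genes were 71, 42 of culture and 29 of cortex. They were 13 (1 and 12) with only the compared arrays, 173 (120 and 53) with both blocks, 237 (126 and 111) with the block in cultures alone, 293 (171 and 122) with array weights and 139 (122 and 17) in 1 model. Quantile normalization gave 128 (71 and 57), scaled arrays 123 (85 of culture), the looser threshold 167 (98 and 69), and 1.5-fold 36 (5 of cortex). Genes of opposite direction were 2 with either block, array weights, scaled arrays or the signal filter, 1 after quantile normalization and 3 at the looser threshold.

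Leaving out each array gave 72 to 411 for the difference, 1 to 82 for culture, 104 to 481 for cortex, 0 to 11 for shared genes and 22 to 122 for system-specific genes (1 to 68 of culture, 9 to 54 of cortex). The difference was 411 without recovered dish 2 and 376 without recovered dish 3, and 72 to 83 without any 1 of the recovered or deprived pools. Culture was 82 without recovered dish 3, 19 without recovered dish 2 or sham dish 3, and 1 to 13 without any other dish. Cortex was 481 without control pool 3 and 104 to 215 without any other pool. For recovered against control, limma called 0 genes in both systems (877 in culture and 427 in cortex at an unadjusted p under 0.05). Array weights gave 1 in each, trend and robust eBayes, the signal filter and the looser threshold 1 in cortex, 1 model 64 in culture, and leaving out arrays 0 to 1 in culture. The alternatives on genes in opposite directions and on recovered against control, and the weight algorithm, were added after the data were seen.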
